A study of Mus musculus with 12 samples.

Results

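The S100 proteins and annexins examined here were 10 genes: S100a1, S100a4, S100a6, S100a10, S100a11 and Anxa1 to Anxa5. They were selected by symbol, by a rule that uses no measured value but with earlier results of these data known, out of 47643 genes in the count table, and all 10 of the 10 passed the filter on low counts that left 13681 genes for testing. S100 proteins are small calcium sensors of the EF-hand type that mostly act as dimers and bind a target once calcium is bound, whereas annexins are larger proteins that attach to acidic phospholipids of a membrane when calcium rises. The families meet in fixed pairs: S100a10, which no longer needs calcium, joins a pair of Anxa2 molecules into a tetramer at the plasma membrane that recruits plasminogen and the large scaffold Ahnak, S100a11 pairs with Anxa1, and S100a6 binds Anxa11. Osteoclasts are the multinucleated bone-resorbing cells that monocytes form by fusion under M-CSF and RANKL, and both families take part in membrane fusion, secretion and repair in many cell types.

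Bulk RNA-seq. was measured in 12 libraries of bone marrow-derived monocytes (BMMs) of wild-type BALB/c mice that were cultured in M-CSF and RANKL and harvested on day 3. OCsCtr (n = 4) received no stimulus. OCsEo (n = 4) received sorted eosinophils of IL-5tg/4get mice, which carry an IL-5 transgene and an IL-4 reporter, at a BMMs/Eos ratio of 1:2 for 48 h. OCsEoS (n = 4) received the conditioned supernatant of such eosinophils at a 1:2 dilution for 48 h. In both stimulated groups the cells were washed and the medium changed before the last day, and whether eosinophils remained in OCsEo is not stated. The eosinophils had been pooled from blood and bone marrow, and neither the animals behind each library nor their age is given in the labels.

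Library totals ran from 27837530 to 40327869 counts, so that 3 counts, taken as the detection floor, were worth 0.0769 to 0.107 CPM (counts scaled to the library size with TMM factors). A gene was called when edgeR's quasi-likelihood test gave a Benjamini-Hochberg adjusted p under 0.05 together with a log2 fold change beyond 0.5 in either direction, and all p-values measured only the spread between these libraries. Osteoclast markers fell, with 8 of 10 called lower in OCsEo (5 without OCsEo 1) and 8 of 10 in OCsEoS. Over all genes tested, 2.61% and 4.11% were called lower. The summed level of these markers went from 28360.0 to 34500.0 CPM in OCsCtr to 18090.0 to 23210.0 CPM in OCsEo and 14940.0 to 22170.0 CPM in OCsEoS. In bulk RNA, fewer cells of a type and less RNA per cell cannot be told apart, which holds for every value below.

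Per kilobase of merged exons, most of these genes were abundant, and 9 of the 10 ranked within the top 6.48% of the tested genes in OCsCtr. Merged exons can exceed the longest coding transcript, as in Anxa2 (3731 against 1447 bases) and not in S100a11 (511 in both). The order between genes therefore depends on the length used. S100a10 led in OCsCtr at 1159 ± 41.5 RPKM (CPM per kilobase of exons, SD, n = 4), rank 56 of 13681, and Anxa1, a glucocorticoid-induced anti-inflammatory annexin, was second among the 10 at 613 ± 29.6 RPKM. S100a11 (467 ± 14.002 RPKM), S100a6 (463 ± 6.96 RPKM) and S100a4 (422 ± 50.4 RPKM) followed with overlapping ranges, and S100a4 also overlapped Anxa5 (382 ± 21.0 RPKM). Anxa2 stood at 287 ± 3.12 RPKM, S100a1 at 148 ± 8.19 RPKM and Anxa4 at 84.9 ± 6.58 RPKM, each apart from its neighbours in this order. Anxa3 was far below all others at 7.33 ± 1.40 RPKM, rank 5143. The lowest of the 10 in level was thus the one with the largest fold changes, described next. In OCsEoS, S100a6 (607 ± 12.4 RPKM) stood above Anxa1 (556 ± 22.2 RPKM) with no overlap between their ranges.

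**Figure D1:**
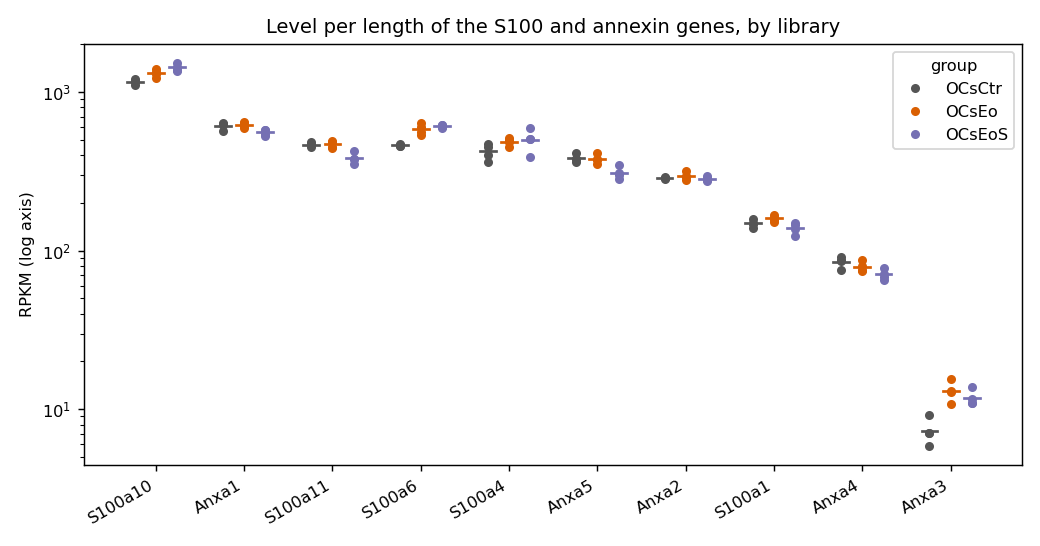
Level per length (RPKM, log axis) of the 10 genes in each library, ordered by the OCsCtr mean; points are libraries (4 per group) and short lines are group means. S100a10 is highest and Anxa3 lowest in every group.

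Against OCsCtr, 1 of the 10 genes was called higher in OCsEo and 1 in OCsEoS, Anxa3 in both, and none was called lower. Over all genes tested, 3.27% were called higher and 2.61% lower in OCsEo, and 3.63% higher and 4.11% lower in OCsEoS. On adjusted p alone, with no fold cut-off, 3 of 10 were higher and 0 lower in OCsEo, beside 9.06% higher and 8.35% lower of all genes, and 3 were higher and 3 lower in OCsEoS, beside 11.8% and 11.2%. The 3 higher genes were Anxa3, S100a6 and S100a10 in both comparisons, and the 3 lower ones in OCsEoS were S100a11, Anxa4 and Anxa5. Both comparisons share the 4 OCsCtr libraries. The median log2 fold change of the 10 genes was 0.075 in OCsEo and -0.057 in OCsEoS, beside -0.0072 and -0.0055 over all genes tested.

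Anxa3, a less studied annexin that was first known as lipocortin III and is found in granulocytes as well as monocytes, rose with both stimuli. Its CPM was 26.0, 25.8, 21.4 and 33.6 in OCsCtr 1 to 4. It was 56.9, 39.1, 47.0 and 47.7 in OCsEo 1 to 4, and 50.5, 39.8, 42.1 and 39.7 in OCsEoS 1 to 4. The OCsCtr library with the highest value, OCsCtr 4, still lay under the lowest library of either stimulated group, so the groups did not overlap. The fitted log2 fold change was 0.84 ± 0.13 (SE, n = 4 per group, edgeR adjusted p = 1.62e-04), a 1.78-fold rise, in OCsEo and 0.69 ± 0.13 (adjusted p = 6.38e-04), a 1.61-fold rise, in OCsEoS. The stimulated groups differed from each other by -0.15 (95% interval -0.40 to 0.10, adjusted p = 0.710), with overlapping libraries. Anxa3 lies on the plus strand of chromosome 5 (GRCm38, chr5:96793339-96845966), outside the clusters that hold the S100 genes. Over the 12 libraries, the tested gene whose log2 CPM, centred on its own mean, ran closest to that of Anxa3 was Dhrs3, a retinaldehyde reductase, with a root mean square difference of 0.139 and log2 fold changes of 0.83 and 0.67. Dhrs3 was picked for this closeness over the same libraries, so its similar fold changes are no separate result.

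**Figure D2:**
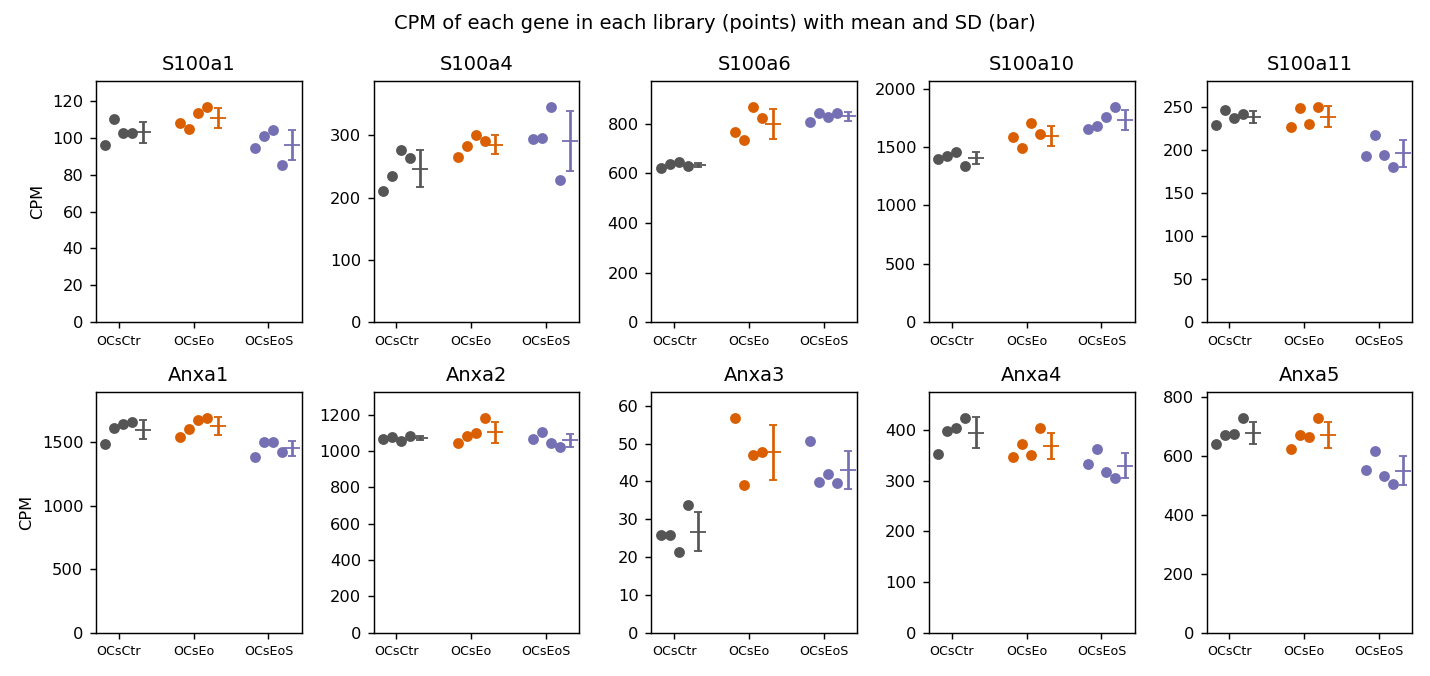
CPM of each gene in each library (points, replicates 1 to 4 from left to right within a group) with group mean and SD (bar) at their right; each panel starts at 0 and has its own scale. Anxa3, S100a6 and S100a10 have every stimulated library above every OCsCtr library, and S100a11 and Anxa5 have every OCsEoS library below the rest.

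S100a6, also called calcyclin, which is tied to proliferation and cytoskeletal turnover, was higher with both stimuli by less than the cut-off. Its CPM was 623, 638, 645 and 628 in OCsCtr 1 to 4, 768, 734, 869 and 823 in OCsEo 1 to 4, and 807, 843, 828 and 842 in OCsEoS 1 to 4. The OCsCtr libraries lay within a narrow band, and every stimulated library was above it. The log2 fold change was 0.33 ± 0.053 (SE, edgeR adjusted p = 2.33e-04) in OCsEo and 0.39 ± 0.053 (adjusted p = 4.06e-05) in OCsEoS. S100a6 (chr3:90612882-90624181, plus strand) shares no exact 50-base stretch of its longest coding transcript with any other annotated gene. Copies with mismatches or outside the annotation were not examined.

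S100a10, the Anxa2 partner also known as p11, moved the same way at a smaller size. Its CPM was 1396, 1424, 1459.8 and 1341 in OCsCtr 1 to 4. It was 1583, 1496, 1705 and 1610.5 in OCsEo 1 to 4, and 1651, 1680.1, 1756 and 1845 in OCsEoS 1 to 4. No OCsCtr library reached the lowest stimulated one. In OCsEoS the log2 fold change was 0.30 ± 0.052 (SE, edgeR adjusted p = 3.20e-04), and in OCsEo it was 0.19 ± 0.052 (adjusted p = 0.0170). The OCsEo call on p was lost without OCsCtr 4 (0.16, adjusted p = 0.0641) and without OCsEo 3 (0.15, adjusted p = 0.0599).

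Anxa2, which carries S100a10 at the membrane, did not pass the test in either comparison. Its CPM was 1064, 1077, 1056 and 1081 in OCsCtr 1 to 4, 1045, 1082, 1101 and 1183 in OCsEo, and 1065, 1103, 1042 and 1020.3 in OCsEoS. The libraries of the 3 groups overlapped. Its log2 fold change was 0.045 (95% interval -0.051 to 0.14, adjusted p = 0.607) in OCsEo and -0.016 (95% interval -0.11 to 0.080, adjusted p = 0.862) in OCsEoS. Per kilobase of merged exons, S100a10 and Anxa2 stood at 1159 and 287 RPKM in OCsCtr and at 1430 and 283 RPKM in OCsEoS.

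S100a11, Anxa5 and Anxa4 were lower in OCsEoS and did not pass in OCsEo, and the test of that difference follows further on. S100a11, or calgizzarin, is the partner of Anxa1. Its CPM was 229, 246, 237 and 242 in OCsCtr 1 to 4, 226, 248, 229.9 and 249.9 in OCsEo, and 192, 217, 193 and 180.3 in OCsEoS. Each OCsEoS library lay below each library of the other groups. The log2 fold change was -0.28 ± 0.062 (SE, edgeR adjusted p = 0.00226) in OCsEoS and 0.0013 ± 0.062 (adjusted p = 0.993) in OCsEo. Its counts are uncertain, because 41.1% of the 50-base windows of its transcript also occur in the annotated copies Gm12854, which held 98 to 213 counts a library, Gm7665, with 145 to 283 counts, and Gm29240, with 0.

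Anxa5 binds phosphatidylserine, the lipid that is exposed on dying and on fusing cells. Its CPM was 642, 670.3, 673 and 731 in OCsCtr 1 to 4, 622, 671, 664 and 729 in OCsEo, and 551, 617, 531 and 504 in OCsEoS. As for S100a11, all 4 OCsEoS libraries were the lowest of the 12. The log2 fold change in OCsEoS was -0.30 ± 0.065 (SE, edgeR adjusted p = 0.00211), and in OCsEo it was -0.015 ± 0.065 (adjusted p = 0.914). Anxa4, an annexin of secretory and apical membranes, was at -0.26 ± 0.069 (adjusted p = 0.00942) in OCsEoS and -0.10 ± 0.069 (adjusted p = 0.369) in OCsEo. Its CPM was 352, 398, 404 and 425 in OCsCtr 1 to 4, 347, 373, 350.4 and 403 in OCsEo, and 332, 363, 318 and 305 in OCsEoS, so that OCsEoS 2 lay above OCsCtr 1.

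The remaining genes did not pass the test against OCsCtr. Anxa1 was at 0.026 ± 0.051 (adjusted p = 0.795) in OCsEo and -0.14 ± 0.051 (adjusted p = 0.0551) in OCsEoS. Its p in OCsEoS fell under 0.05 without OCsCtr 1 (-0.18, adjusted p = 0.0186), OCsEo 1 (-0.15, adjusted p = 0.0393) or OCsEo 3 (-0.14, adjusted p = 0.0467), and in 5 of 12 other settings, among them DESeq2 on all 12 libraries (adjusted p = 0.0383). S100a4, also called metastasin, which binds non-muscle myosin and is found in motile cells, was at 0.21 ± 0.098 (adjusted p = 0.162) and 0.24 ± 0.098 (adjusted p = 0.0856). Its CPM was 211, 234, 277 and 264 in OCsCtr 1 to 4, 264, 283, 300.4 and 290.0 in OCsEo, and 293, 296, 346 and 229 in OCsEoS. It was the most variable of the 5 S100 genes of the set in OCsCtr and OCsEoS, with CVs of 11.9% and 16.5%. OCsEoS 4 fell among the OCsCtr libraries, and without it the OCsEoS difference was 0.35 (adjusted p = 0.00760), while without OCsCtr 3 it was 0.30 (adjusted p = 0.0485). S100a4 shares 302 exon bases, 51.7% of its exons, with the read-through gene Gm42674 on the same strand, which held 0 counts in every library. How reads over the shared bases were counted is not given, so the level of S100a4 is uncertain too. S100a1, best known from muscle, was at 0.10 ± 0.070 (adjusted p = 0.352) and -0.098 ± 0.070 (adjusted p = 0.357), with group means of 103 ± 5.68, 111 ± 5.43 and 96.3 ± 8.25 CPM (SD, n = 4) in OCsCtr, OCsEo and OCsEoS.

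**Figure D3:**
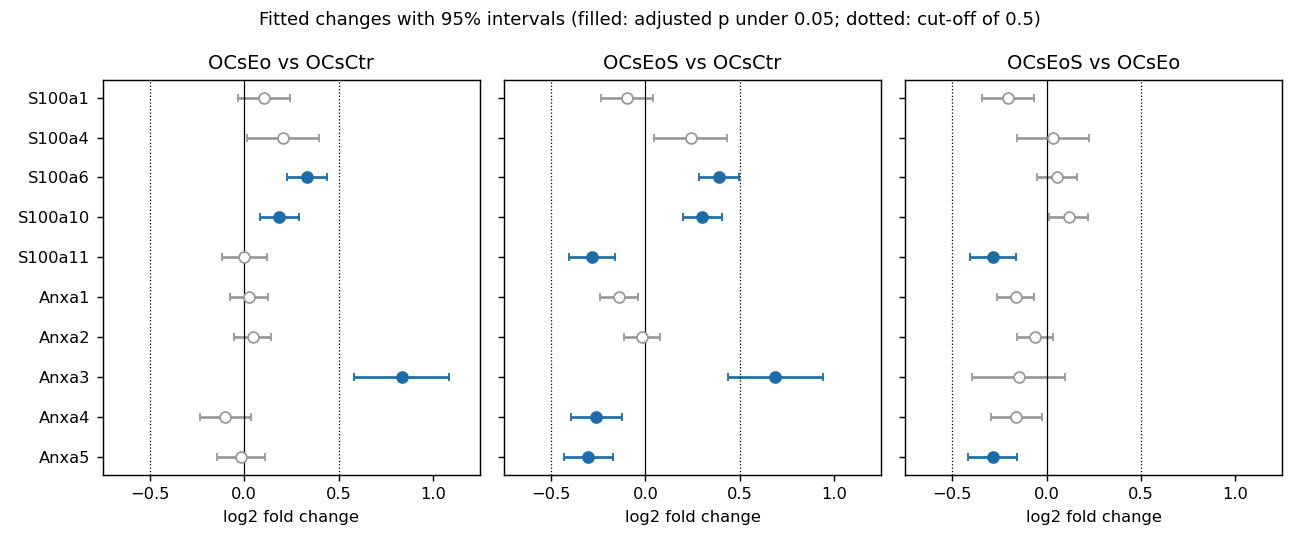
Fitted log2 fold change of each gene in the 3 comparisons with its 95% interval (n = 4 libraries per group); filled points have an edgeR adjusted p under 0.05, and dotted lines mark the fold cut-off of 0.5. Only Anxa3 lies beyond the cut-off, in both comparisons with OCsCtr.

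Whether cells and supernatant acted differently was tested directly, as OCsEoS against OCsEo. Of the 10 genes 0 were called by edgeR and 0 by DESeq2 on all 12 libraries, beside 0.0731% of all genes called higher and 0.307% lower by edgeR. At an unadjusted p under 0.05, 6 of the 10 passed, beside 11.1% of all genes. On adjusted p alone 2 of the 10 were lower and 0 higher, beside 0.497% lower and 0.095% higher of all genes. These were S100a11 at -0.29 ± 0.062 (edgeR adjusted p = 0.0373) and Anxa5 at -0.29 ± 0.065 (adjusted p = 0.0487), and both differences lost their p in 8 of the 12 fits that left out 1 library and with edgeR on the 8 libraries of these groups (adjusted p = 0.0790 for both). Anxa5 also lost it with DESeq2 size factors (adjusted p = 0.0530) and upper-quartile scaling (adjusted p = 0.0605). The adjusted p in those 8 fits ran from 0.0520 to 0.129 for S100a11 and from 0.0690 to 0.176 for Anxa5, and the libraries were OCsCtr 2 and 3, OCsEo 2, 3 and 4, and OCsEoS 1, 3 and 4. S100a1 (-0.20 ± 0.070, adjusted p = 0.256) and Anxa1 (-0.16 ± 0.051, adjusted p = 0.191) also had every OCsEoS library below every OCsEo library. The share of all tested genes whose libraries separate in this way was not computed, here or against OCsCtr. Anxa4 was at -0.16 ± 0.069 (adjusted p = 0.386) with overlapping libraries. The median log2 difference of the 10 genes was -0.15, beside 0.0015 over all genes tested.

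Set against each other, the families took different shares of the libraries. The 5 S100 genes summed to 2556 to 2721 CPM in OCsCtr, 2866 to 3218 CPM in OCsEo and 3038 to 3227 CPM in OCsEoS. The 5 annexins summed to 3568 to 3924 CPM, 3612 to 4055 CPM and 3293 to 3618 CPM. The S100 sum was therefore 65.7% to 71.7% of the annexin sum in OCsCtr, 76.1% to 83.9% in OCsEo and 86.7% to 96.6% in OCsEoS, with no overlap between groups, which is given as a description because S100a6 and S100a10 dominate it.

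The S100 genes are also the shorter ones, with 511 to 1367 exon bases against 1777 to 4645 in the annexins. With the trend of log2 CPM on gene length taken out of each library, an alternative listed with earlier results known, all 5 S100 genes shifted downward in both comparisons with OCsCtr, by -0.044 to -0.10 in OCsEo and -0.10 to -0.13 in OCsEoS, and 2 of 5 annexins did. S100a10 was then at 0.089 (adjusted p = 0.150) in OCsEo, where its call on p was lost, and at 0.18 (adjusted p = 0.00400) in OCsEoS. S100a6 stood at 0.23 (adjusted p = 0.00105) and 0.26 (adjusted p = 2.58e-04), and S100a1 and Anxa1 passed in OCsEoS at -0.21 (adjusted p = 0.0296) and -0.18 (adjusted p = 0.00863). Anxa3 hardly moved, at 0.84 and 0.69, whereas S100a11 and Anxa5 in OCsEoS were at -0.39 and -0.40. Whether the length trend is technical was not tested.

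**Figure D4:**
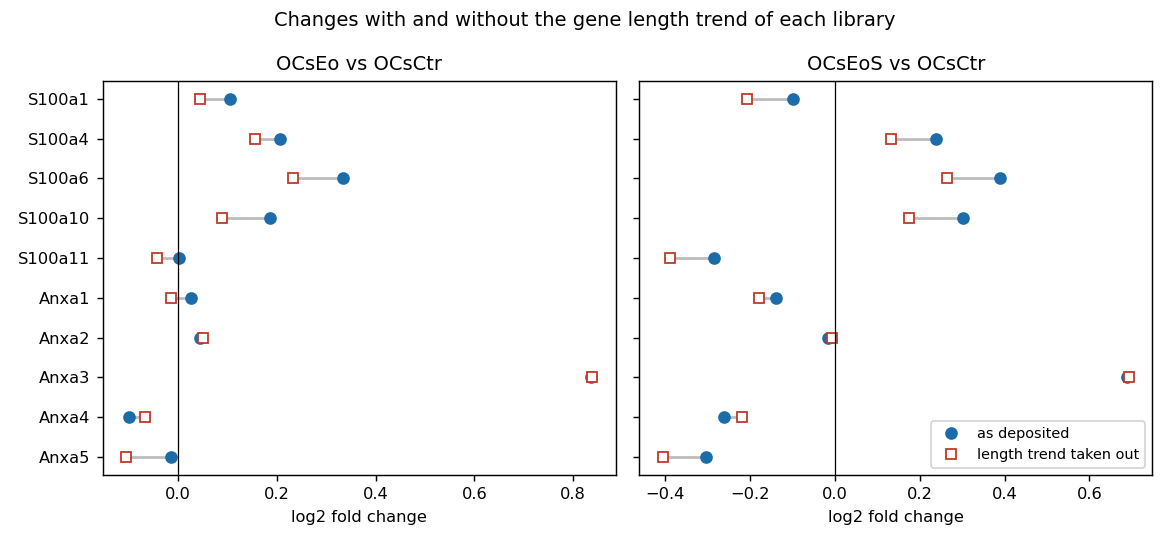
Log2 fold change of each gene against OCsCtr as fitted on the deposited counts (filled) and with each library's trend on gene length taken out (open squares). The 5 S100 genes move left in both panels and Anxa3 stays in place.

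All 5 S100 genes of the set lie on chromosome 3, in an interval from S100a1 to S100a10 that holds 13 listed S100 genes (chr3:90511034-93564643). Neighbours there did not move as one. S100a13, which takes part in the release of growth factors without a signal peptide, starts 42 bases from the start of S100a1 on the opposite strand. Its CPM was 54.2, 52.9, 52.5 and 45.2 in OCsCtr 1 to 4, 82.2, 75.2, 83.1 and 85.8 in OCsEo, and 93.7, 80.4, 86.0 and 95.8 in OCsEoS. Every stimulated library was above every OCsCtr library, and the gene was called at 0.67 ± 0.077 (SE, edgeR adjusted p = 7.66e-06) and 0.80 ± 0.077 (adjusted p = 2.07e-06). S100a1, which shares the interval between both starts, did not pass in either comparison. Likewise S100a11 and S100a10, 28792 bases apart, stood at -0.28 and 0.30 in OCsEoS.

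**Figure D5:**
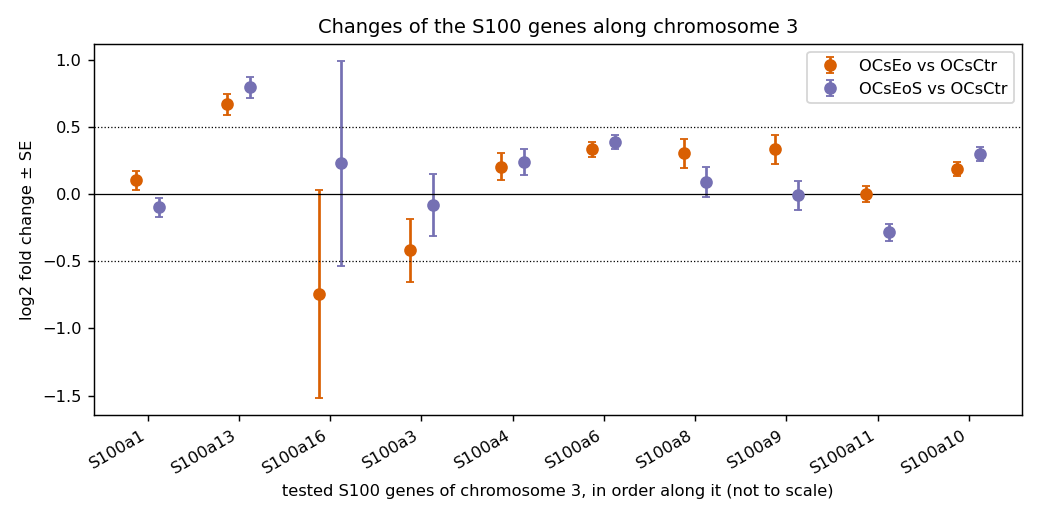
Log2 fold change ± SE against OCsCtr (n = 4 libraries per group) of the tested S100 genes of chromosome 3, in their order along it and not to scale; dotted lines mark the fold cut-off. S100a13 stands above the cut-off next to S100a1 near 0, and S100a11 and S100a10 lie on opposite sides of 0 in OCsEoS.

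Promoter sequences from RefSeq (GRCm38.p6) were at hand for 8 of the 10 genes, with no entry for S100a10 and Anxa3. They are shown because AP-1, the Fos and Jun dimer that RANKL induces, was searched for by the letters TGANTCA (N any base), a motif chosen after the values were seen. Read on both strands over the 250 bases before the start, it occurred 2 times in S100a11 and 1 time in Anxa2, in none of the other 6 promoters, and in 6.75% of 32851 promoters. The GC box (GGGCGG) and TATA box (TATAAA) were searched as well. GGGCGG occurred 3 times in S100a11, 3 times in Anxa2, in none of the other 6, and in 32.7% of all promoters. TATAAA occurred 1 time each in S100a4, Anxa1 and Anxa2, and in 12.4% of all promoters. The first sequence precedes S100a11 (chr3:93520246-93520487, plus strand), with the AP-1 letters in capitals. The second precedes Anxa5 (chr3:36475895-36476137, minus strand), which was lower in the same libraries and holds no match. The third is the whole interval between S100a1 and S100a13 (chr3:90514393-90514434, plus strand). A match describes the letters and not binding.
S100a11: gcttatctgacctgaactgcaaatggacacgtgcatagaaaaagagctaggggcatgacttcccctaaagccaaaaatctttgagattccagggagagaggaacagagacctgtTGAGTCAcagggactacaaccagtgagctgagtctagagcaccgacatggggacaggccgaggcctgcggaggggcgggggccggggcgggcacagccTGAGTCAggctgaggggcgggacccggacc
Anxa5: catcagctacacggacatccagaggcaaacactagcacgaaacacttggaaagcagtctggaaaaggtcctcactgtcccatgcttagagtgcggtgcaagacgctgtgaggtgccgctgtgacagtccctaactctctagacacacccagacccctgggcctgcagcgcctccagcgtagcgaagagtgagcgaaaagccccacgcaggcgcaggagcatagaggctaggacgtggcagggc
S100a1 to S100a13: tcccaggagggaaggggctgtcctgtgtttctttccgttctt

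Of 11 other S100 genes listed, 5 passed the filter. Of these 1, S100a13, was called higher in OCsEo and in OCsEoS, beside 3.27% and 3.63% of all genes. S100a9, the partner of S100a8 in the neutrophil and monocyte alarmin calprotectin, was higher in OCsEo at 0.34 ± 0.11 (adjusted p = 0.0355), under the cut-off, and at -0.0082 ± 0.11 (adjusted p = 0.970) in OCsEoS. S100a8 was at 0.30 ± 0.11 (adjusted p = 0.0605) and 0.091 ± 0.11 (adjusted p = 0.614). S100a3 and S100a16 had SEs from 0.23 to 0.78 and did not pass. Of 7 other annexins, 5 were tested and 0 were called against OCsCtr by edgeR or by DESeq2. In each comparison 1 had an unadjusted p under 0.05, beside 29.7% of all genes in OCsEo and 34.3% in OCsEoS. Anxa11, the S100a6 partner, was lower in OCsEoS at -0.38 ± 0.096 (adjusted p = 0.00694) and at -0.15 ± 0.096 (adjusted p = 0.329) in OCsEo, while Anxa6, Anxa7, Anxa8 and Anxa9 passed in neither.

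The listed partners of both families, from receptors to the plasminogen system, held 20 genes, of which 18 were tested. In each comparison 1 was called higher, beside 3.27% of all genes in OCsEo and 3.63% in OCsEoS. Plau, the urokinase that activates plasminogen, rose by 0.54 ± 0.12 on the log2 scale (SE, edgeR adjusted p = 0.00257) in OCsEo and was at 0.38 ± 0.12 (adjusted p = 0.0211) in OCsEoS. Its receptor Plaur rose by 0.70 ± 0.12 (adjusted p = 3.97e-04) in OCsEoS and was at 0.39 ± 0.12 (adjusted p = 0.0336) in OCsEo. Plau lost its OCsEo call without OCsCtr 4 or OCsEo 1, and Plaur was called there too without OCsCtr 1. In OCsEoS the number called in either direction became 2 without OCsCtr 1, with the phospholipase Pla2g4a higher, and 3 without OCsEoS 2, with Pla2g4a higher and the membrane repair protein Myof lower. Ager, a receptor for S100 proteins, and Dysf, a membrane repair protein, did not pass the filter. On adjusted p alone 3 partners were higher and 0 lower in OCsEo, beside 9.06% and 8.35% of all genes. In OCsEoS 3 were higher and 3 lower, beside 11.8% and 11.2%. The scaffold Ahnak was higher in OCsEo at 0.30 ± 0.084 (edgeR adjusted p = 0.0168) and at -0.027 ± 0.085 (adjusted p = 0.864) in OCsEoS. The 3 lower in OCsEoS were Capn1, Tgm2 and Myof. Of the 18 tested, 13 were above and 5 below 0 in OCsEo, and 7 and 11 in OCsEoS, with a median of 0.16 and -0.043.

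Of 14 other cytosolic calcium-binding proteins, 0 were called against OCsCtr by edgeR or by DESeq2 on all 12 libraries, with 8 in OCsEo and 10 in OCsEoS at an unadjusted p under 0.05, beside 29.7% and 34.3% of all genes. On adjusted p alone 2 were higher and 3 lower in OCsEo, beside 9.06% and 8.35% of all genes. In OCsEoS 1 was higher and 3 lower, beside 11.8% and 11.2%. Gsn and Lcp1 were called lower in OCsEoS without OCsEoS 2, and Gsn also without OCsCtr 1.

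Some granulocyte markers were higher in OCsEo, where 3.27% of all genes tested were called higher and 2.61% lower. In OCsEoS these shares were 3.63% and 4.11%. An unadjusted p under 0.05 was reached by 29.7% of all genes in OCsEo and 34.3% in OCsEoS. Of 10 eosinophil markers 5 were tested and 2, Alox15 and Siglecf, were called higher in OCsEo, while the summed level was 57.1 to 73.7 CPM in OCsCtr, 60.1 to 82.2 CPM in OCsEo and 49.3 to 55.5 CPM in OCsEoS. Ccr3 made up most of that sum and was lower in OCsEo at -0.29 (adjusted p = 0.0164). The defining granule gene Epx held 9 counts in all in OCsCtr, 31 in OCsEo and 0 in OCsEoS. Of 10 neutrophil markers 2, Elane and Camp, were called higher in OCsEo, and their summed level was 146 to 217 CPM, 236 to 284 CPM and 149 to 185 CPM. Camp was not called without OCsCtr 3, OCsEo 2 or OCsEo 3. In OCsEoS, where Anxa3, S100a6 and S100a10 were also higher than in OCsCtr, 4 of 10 eosinophil markers had no count Prg2 was called lower, and 0 neutrophil markers were called by edgeR or DESeq2, with 4 at an unadjusted p under 0.05 (1 called without OCsCtr 2, 2 without OCsCtr 3 and 1 without OCsEoS 2). Monocyte and macrophage markers held 1 higher of 10 in OCsEo, Cd14, and 3 higher and 1 lower in OCsEoS, and Adgre1 joined Cd14 in OCsEo without OCsCtr 4, OCsEo 2 or OCsEo 3. Their summed level was 2330.0 to 2676 CPM, 2151 to 2507 CPM and 1948 to 2328 CPM. T cell, B cell, mast cell and stromal lists had 0 called of 3, 6, 2 and 7 tested in both comparisons by edgeR and by DESeq2, with 2 B cell genes in OCsEo and no other at an unadjusted p under 0.05, and at most 1 gene of a list called without 1 library. The part of these cells in the values of the S100 and annexin genes was not tested.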

How the data were processed

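RNA of day 3 osteoclasts was prepared with an NEBNext Ultra kit and sequenced in pairs. The authors cleaned the reads (fastp, per the submitters' processing notes), aligned them to GRCm38/mm10 with HISAT2 2.0.5 and counted reads per gene with featureCounts; the annotation release and the strand setting are not given in the sources used here. The deposited table holds raw, unnormalized counts. Here edgeR 4.0.16 (R 4.3.3) was run on all 12 libraries in 1 quasi-likelihood fit with filterByExpr (minimum count 10), TMM scaling and Benjamini-Hochberg adjustment over 13681 genes, with the cut-offs of the study's methods. The fit was tested on simulated counts. CPM used the TMM scaling, and RPKM also the gene length in the table. Intervals on fold changes are 1.96 SE to either side. DESeq2 1.42.0, other scalings and filters, fold cut-offs, a replicate block, a loess fit on gene length (span 0.3), thinned counts and leaving out each library were alternatives; DESeq2 on the gene lists and all fits of S100a13 were added after seeing the data. No replicate pair agreed within sampling noise (chi-square per degree of freedom at least 9.99). Outer coordinates of the 10 genes were the same in GENCODE vM21, which held 99.1% of the gene IDs. The merged exons of Anxa1 spanned 2911 bases there and 2608 in the count table, the length used for its RPKM.

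The members and lists were chosen with earlier results of these data known. Named genes were the 10 members, the other S100 and annexin genes past the filter, up to 5 called genes a list, genes that overlap a member, and for a called member the tested gene nearest to it over the 12 libraries; the genes that passed on p alone or changed call in an alternative were named after their values were seen.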

Additional observations from a re-analysis of the deposited data

Results flagged for a closer look

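The OCsEoS libraries differed from the OCsEo libraries in the effect on S100a11 (log2 difference -0.2853, edgeR adjusted p = 0.0373) and on Anxa5 (-0.2868, edgeR adjusted p = 0.0487), the difference itself being tested in the fit of all genes. All 4 OCsEoS libraries were below all 4 OCsEo libraries for both genes, and both p-values passed 0.05 upward in 8 of 12 fits that left out 1 library. Such a separation was seen in 4 of the 10 genes, and its share over all tested genes was not computed. A rule that flags a library when a ratio passes a critical value for 4 values flagged 0 of the 30 sets examined. With 4 values per set, the absence of a flag cannot show that no library stood apart, and no conclusion is drawn from it. OCsEoS 4 was not flagged for S100a4, yet leaving it out moved the OCsEoS difference from OCsCtr from 0.24 (edgeR adjusted p = 0.0856) to 0.35 (adjusted p = 0.00760).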

How the results depend on the processing

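Anxa3 was called against OCsCtr in every alternative except a fold cut-off of 1, with log2 fold changes of 0.74 to 0.97 in OCsEo and 0.60 to 0.82 in OCsEoS when 1 library was left out. The number of the 10 genes called went from 1, 1 and 0 in OCsEo, OCsEoS and OCsEoS against OCsEo to 3, 6 and 2 with no fold cut-off, and to 0 and 0 against OCsCtr with a cut-off of 1; it was otherwise the same. Over 30 changes, fits without 1 library kept direction and side of the threshold in 328 cases, lost it in 18, gained it in 5 and reversed in 9; the other settings did so in 339, 5, 10 and 6. All reversals were of changes that did not pass the test. S100a11 in OCsEo was at -0.00020 with edgeR on the 8 libraries, -0.018 with no scaling, -0.0019 with no filter and -0.042 with the length trend taken out, under which Anxa1 in OCsEo was at -0.013 and S100a4 in OCsEoS against OCsEo at -0.022. Leaving out 1 library gave -0.022 to 0.025 for S100a11, -0.0089 to 0.051 for Anxa1 and -0.057 to 0.021 for Anxa5 in OCsEo, -0.030 to 0.0062 for Anxa2 in OCsEoS, and -0.061 to 0.13 for S100a4 in OCsEoS against OCsEo.

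Libraries with the same replicate number deviated together with r from -0.111 to 0.182, and the labels tie the numbers to no shared animal or day. The best match carried the same number in 3, 2 and 3 of 4 cases in the 3 comparisons, where random matching would give 1 of 4 on average. Whether the numbers mark a shared replicate effect was not tested. With the replicate block the number called stayed 1, 1 and 0. In OCsEoS, Anxa1 (-0.14, adjusted p = 0.0181) and S100a4 (0.24, adjusted p = 0.0418) then passed on adjusted p. S100a4 also passed in OCsEoS with no filter (adjusted p = 0.0161) and with DESeq2 on all 12 libraries (adjusted p = 0.0436), not with DESeq2 on 8 (adjusted p = 0.221), and in OCsEo with DESeq2 on 8 alone (adjusted p = 0.0341). Anxa1 in OCsEoS also passed with DESeq2 on 8 (adjusted p = 0.0371) and with no scaling (adjusted p = 0.0131). The cause of these changes was not tested. Over all genes, 804, 1058 and 52 were called, 2382, 3151 and 81 with no fold cut-off, and 136, 160 and 21 with a cut-off of 1; in OCsEoS against OCsEo, 100 were called with no filter and 17 to 62 without 1 library. Depth did not limit the 10 genes, the least abundant of which, Anxa3, held at least 727 counts a library.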

Other observations

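Named after their values were seen, the genes nearest to S100a6 over the 12 libraries in centred log2 CPM were the ribosomal protein genes Fau, Rps10 and Rps9. Their root mean square differences were 0.0429, 0.0457 and 0.0464. Those nearest to S100a10 were the ribosomal protein genes Rpl8 and Rps13 (0.0324 and 0.0349) and then Snrpd2 (0.0352), which is not a ribosomal protein gene. The gene nearest to both S100a11 (0.0367) and Anxa5 (0.0379) was Cd68, a lysosomal glycoprotein of macrophages and osteoclasts, at -0.032 in OCsEo and -0.33 in OCsEoS; S100a11 and Anxa5 were also within 3 places of each other (0.0444). For Anxa2 it was Pkm (0.0332), a glycolytic enzyme. The Cd68 fold changes are no separate result, because these genes were picked for closeness over the same 12 libraries.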
